A study of Mus musculus with 8 samples.

Results

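Cytosolic ribosomal proteins are the structural proteins of the ribosome, the particle that translates mRNA in the cytoplasm. The genes described here were chosen by name alone, as symbols of the Rpl or Rps series with a number and an optional letter, the stalk proteins Rplp0, Rplp1 and Rplp2, and Rpsa. The rule took 74 of the 13607 genes in the deposited count table, 30 of the small and 44 of the large ribosomal subunit, and all 74 passed the filter on low counts. Rpl26 and Rpl30 were not analysed here, and genes of ribosomal proteins with other names, such as Rps3a1, Fau and Gnb2l1, were kept as a separate list.

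PolyA RNA was sequenced from cultured mouse astrocytes of strain C57BL/6J whose Yap and Taz alleles are floxed (Yapf/f;Tazf/f), so that Cre recombinase can delete them. According to the series' design text, lentiviruses carried doxycycline-inducible HER2CA, a form of the receptor tyrosine kinase HER2, together with rtTA, the activator that responds to doxycycline, and CreERT2, whose recombinase activity depends on 4-hydroxytamoxifen (4OH-TAM). The study compared the libraries to ask how YAP/TAZ loss changes oncogene-driven transformation of astrocytes.

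The 8 libraries form 4 groups of 2, called A and B. Gliomaspheres were HER2CA cells at passage P1, grown in suspension with doxycycline and harvested 3 weeks after the start. The 4OH-TAM HER2CA group received doxycycline and 1 µM 4OH-TAM for 15 days. The HER2CA day 15 group received doxycycline, with DMSO named as vehicle in one label and no treatment in another. Control astrocytes were not transformed and received no doxycycline, and whether they carried the constructs is not given. All cultures contained EGF and bFGF at 20 ng/ml each. Separate cultures are not stated for A and B. The p-values therefore reflect the spread between the 2 libraries of each group, pooled over all 4 groups, and that spread may be technical. The gap between the gliomasphere libraries thus enters every comparison.

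A ribosome carries 1 copy of most of these proteins, and their genes are known to be expressed at high and closely matched levels. Their mRNAs begin with a terminal oligopyrimidine (TOP) tract, through which the kinase complex mTORC1 and the RNA-binding protein LARP1 are known to control their translation and stability. In astrocytes, as in other cells, the demand for ribosomes follows growth and protein synthesis, and MYC is a known activator of ribosomal protein gene transcription.

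The start of a TOP mRNA is a C followed by a run of pyrimidines. A heptamer of this kind was searched in the RefSeq promoter windows of the mouse build GRCm38.p6. For 55 of the 74 genes a window was matched by symbol, running from 250 bases before to 50 bases after the annotated start. The pyrimidine heptamer CTCTTTC was found on the transcript strand in 12 of the 55 genes (21.8%), against 4.61% of the 10339 genes of the count table with a window. The heptamer CCGGAAG, the core that ETS factors such as GABPA are known to bind, was searched on both strands and found in 22 of the 55 genes (40.0%), against 19.1% of the genes of the count table. The members are included in these backgrounds, and the 2 motifs can overlap by 1 base. The 6 windows of 30 bases below belong to the genes whose heptamer lies nearest to an annotated start, and are printed to show the tract there, with CTCTTTC in capitals, 5′ to 3′ on the transcript strand.
Rpl28: cctctcgtgtctCTCTTTCcgtctccggcc
Rpl35: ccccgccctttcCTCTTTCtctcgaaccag
Rpl35a: gggcttgccttcCTCTTTCcgccatcttgg
Rpl18: tctcgcaggccgCTCTTTCcccgcccactc
Rps26: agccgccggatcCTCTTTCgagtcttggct
Rps15a: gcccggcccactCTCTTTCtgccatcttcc
The Rpl28 window lies at chr7:4792953-4792982 on the plus strand, and the Rpl35 window at chr2:39005114-39005143 on the minus strand. Those of Rpl35a and Rpl18 lie at chr16:33056470-33056499 and chr7:45718060-45718089, both on the plus strand. Those of Rps26 and Rps15a lie at chr10:128626484-128626513 and chr7:118116143-118116172, both on the minus strand. In Rpl28, Rpl35 and 1 of the RefSeq starts of Rpl35a the heptamer begins at the first transcribed base (offset 0). It begins 1 base further in Rpl18, 5 bases further in Rps26, and at offset -13, before the annotated start, in Rps15a. A match describes these letters only and does not show binding or use of a start site.

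Library depth ran from 15517708 to 28231426 counts. One library stood apart: the ribosomal RNA transcript Rn45s took 36.1% of the counts of gliomaspheres B, against 0.984% to 2.92% of each other library. Levels below are CPM, counts scaled to a fixed library size, with library sizes adjusted by the TMM method of edgeR, and the gliomasphere comparisons are also given without library B. All 8 astrocyte markers were detected in every library. Their summed level was 10581 and 10966 CPM in gliomaspheres, 11119 and 11616 CPM in libraries labelled 4OH-TAM, 2296 and 2397 CPM in HER2CA day 15, and 5306 and 6237 CPM in control astrocytes. The target genes checked the labels in part. Wwtr1, which encodes TAZ, had 123 and 122 CPM in libraries labelled 4OH-TAM, against 194 and 210 CPM in HER2CA day 15. Yap1 had 107 and 103 CPM in libraries labelled 4OH-TAM, against 101 and 103 CPM in HER2CA day 15. Its gene-level counts therefore do not show the loss that the label implies. They cover the whole gene and cannot tell whether the floxed part was deleted.

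Ribosomal protein mRNA was most abundant in HER2CA day 15. The 74 genes together had 18722 and 15418 CPM in gliomaspheres, 13566 and 13977 CPM in libraries labelled 4OH-TAM, 23147 and 21738 CPM in HER2CA day 15, and 14222 and 15307 CPM in control astrocytes. Both HER2CA day 15 libraries lay above all others, and both libraries labelled 4OH-TAM lay below both controls. Both gliomasphere libraries lay above both controls, library B only just. The orders of the 4OH-TAM and gliomasphere libraries against controls depended on the scaling. As a share of counts without the genes Rn45s and Lars2, gliomaspheres B had 1.61%, below control B at 1.67%. Library B labelled 4OH-TAM then had 1.58%, above control A at 1.56%. Both HER2CA day 15 libraries, at 2.41% and 2.27%, stayed above all others. The group means were 17070 ± 2337 CPM in gliomaspheres, 13772 ± 290 CPM in libraries labelled 4OH-TAM, 22443 ± 996 CPM in HER2CA day 15 and 14765 ± 768 CPM in controls (SD, n = 2 each). The ratio of summed large-subunit to summed small-subunit CPM was 1.71 and 1.66 in gliomaspheres, 1.71 and 1.69 in libraries labelled 4OH-TAM, 1.79 and 1.83 in HER2CA day 15, and 1.81 in both controls. In these bulk samples, fewer cells of a type and less RNA per cell cannot be told apart.

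**Figure D1:**
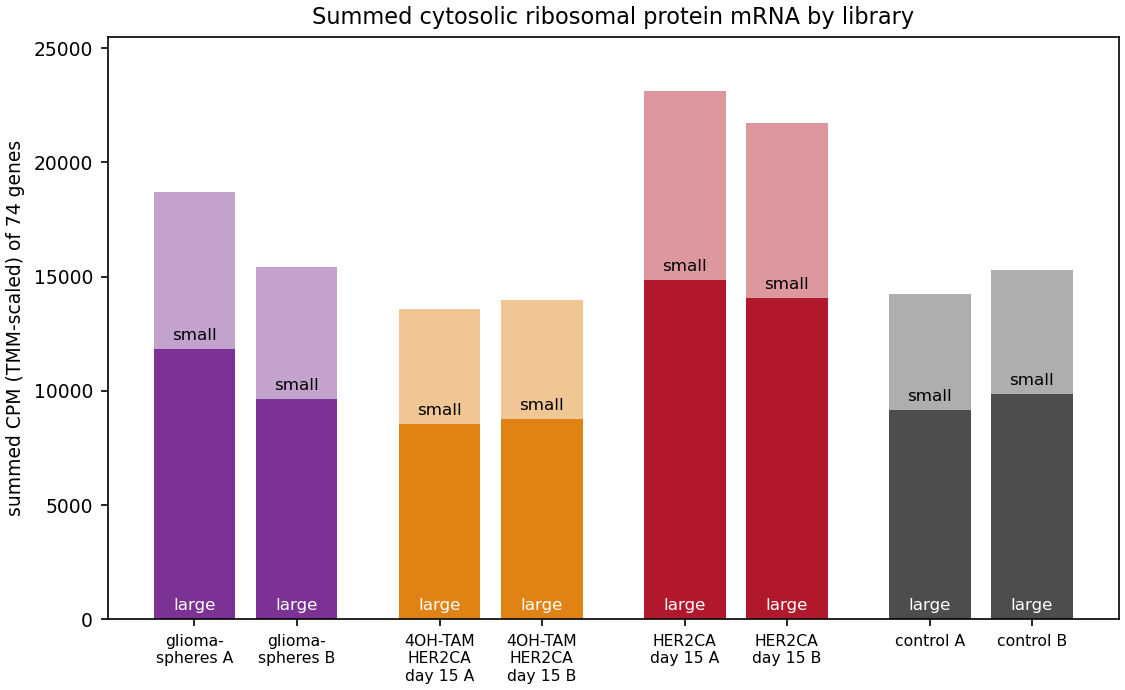
Summed level of the 74 ribosomal protein genes in each of the 8 libraries (y axis, TMM-scaled CPM), with the large subunit as the solid lower part and the small subunit as the pale upper part of each bar. The HER2CA day 15 bars reach 23147 and 21738 CPM, the libraries labelled 4OH-TAM 13566 and 13977 CPM, and the controls 14222 and 15307 CPM; gliomaspheres A and B reach 18722 and 15418 CPM.

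Levels differed widely between genes. Per kilobase of annotated transcript, the mean control level was highest for Rps24 at 758 CPM per kb, followed by Rpl19 at 516 CPM per kb. It was lowest for Rps20 at 17.8, Rps27 at 5.48 and Rpl34 at 2.10 CPM per kb. The value of Rps20 rests on an annotated transcript of 3706 bases and is understated if a shorter one is used. For Rps27, 98.6% of the 50-base stretches of the transcript also occur in transcripts of other genes. Processed pseudogenes are common for this gene family, and 46 of the 74 genes share 50% or more of their 50-base stretches with other annotated genes. The sources used here do not give the treatment of reads with several positions, and the level of such a gene is uncertain. Rpl19, Rps24 and Rps20 were singled out here after their values were seen.

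The libraries labelled 4OH-TAM had lower ribosomal protein mRNA than HER2CA day 15, and their Yap1 counts did not show a loss. By edgeR's quasi-likelihood test, 65 of the 74 genes fell and 1 rose, at an adjusted p under 0.05. Over all 13607 genes, 39.7% were called lower and 40.8% higher. When only these 2 groups were fitted, 71 of the 74 fell and 1 rose, beside 5435 lower and 5732 higher over all genes. The median log2 fold change of the 74 genes was -0.75, beside 0.01 over all genes. At least 1.5-fold falls were called for 47 of the 74, against 23.2% of all genes. In 72 of the 74, both libraries labelled 4OH-TAM lay below both HER2CA day 15 libraries, a pattern shared by 45.6% of all genes. The small subunit had 25 of 30 genes lower with a median of -0.65, and the large subunit 40 of 44 with a median of -0.77. The spread of the log2 fold changes was narrow, with an SD of 0.34 over the 74 genes beside 1.42 over all genes. Cell type markers moved as well. The 8 astrocyte markers summed to 11119 and 11616 CPM in libraries labelled 4OH-TAM, against 2296 and 2397 CPM in HER2CA day 15, and the 7 oligodendrocyte lineage markers to 833 and 872 CPM, against 118 and 110 CPM. The 7 measured microglia markers summed to 174 and 167 CPM in libraries labelled 4OH-TAM, against 26.8 and 28.4 CPM in HER2CA day 15. The 3 measured neuron markers summed to 65.8 and 61.8 CPM in libraries labelled 4OH-TAM, against 34.1 and 36.8 CPM in HER2CA day 15. None of these markers was at 0, and their part in the result was not tested.

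**Figure D2:**
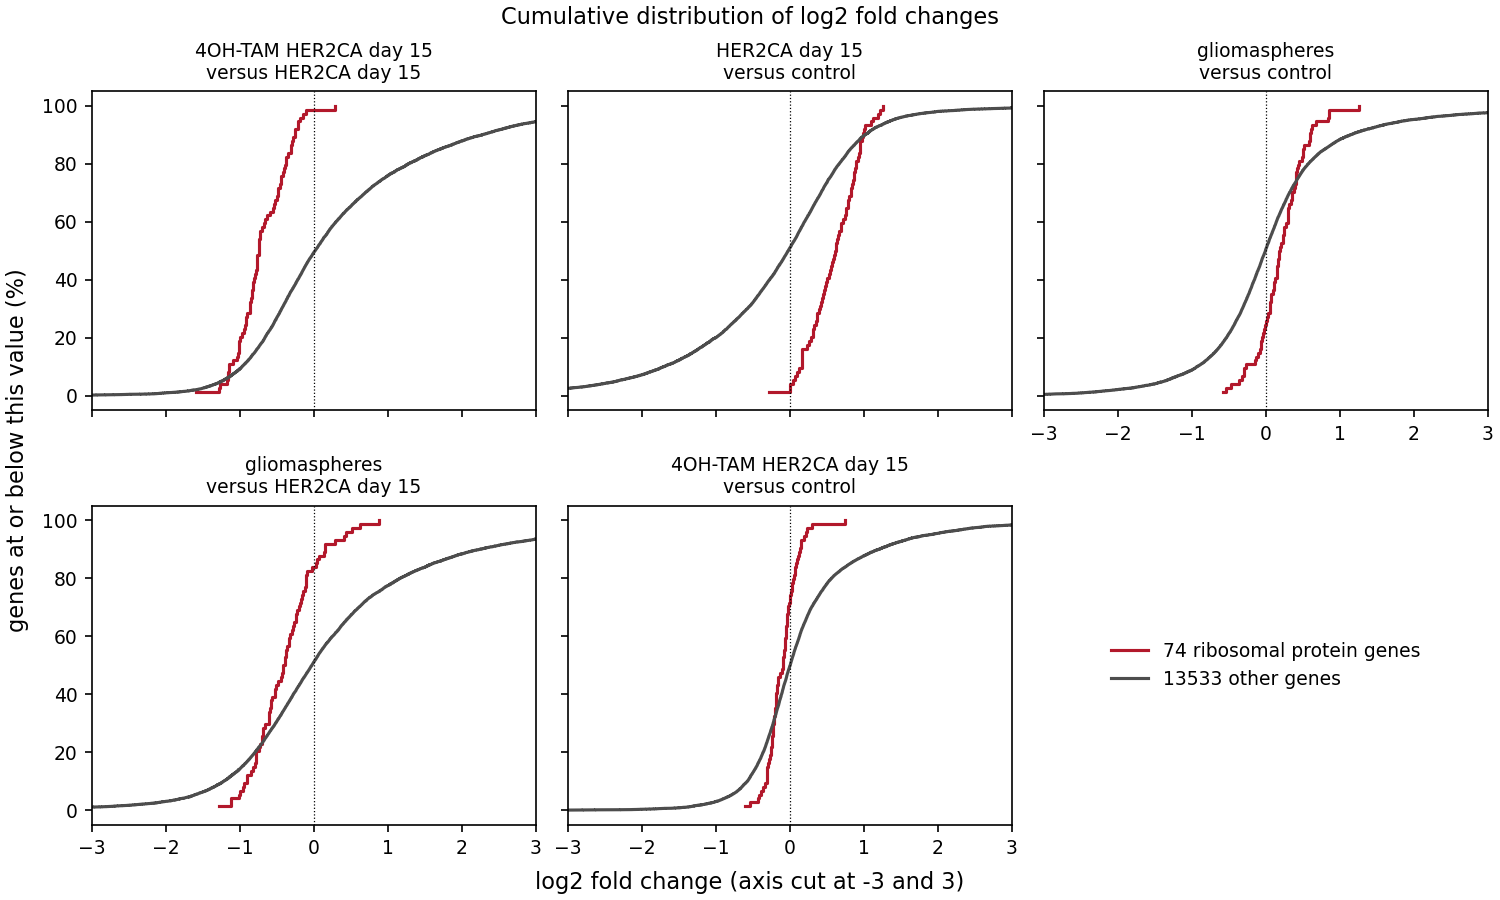
Cumulative share of genes (y axis, %) at or below a given log2 fold change (x axis, cut at -3 and 3) for the 74 ribosomal protein genes in red and the 13533 other genes in grey, in 5 comparisons. The red curve lies left of the grey one for the libraries labelled 4OH-TAM versus HER2CA day 15 (member median -0.75) and right of it for HER2CA day 15 versus control (0.62).

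Among large-subunit genes, Rpl8, whose protein lies near the peptidyl transferase centre, had 225 and 239 CPM in libraries labelled 4OH-TAM, against 573 and 559 CPM in HER2CA day 15. The groups lay far apart beside the gap within each, and the log2 fold change was -1.29 ± 0.10 (SE; edgeR quasi-likelihood adjusted p = 1.18e-08). Rpl36 had 51.2 and 57.4 CPM in libraries labelled 4OH-TAM, against 137 and 124 CPM in HER2CA day 15, a log2 fold change of -1.26 ± 0.18. Rpl34 gave the lowest log2 fold change of all 74 genes, -1.59 ± 0.30, on levels of only 0.843 and 0.765 CPM in libraries labelled 4OH-TAM, against 2.34 and 2.52 CPM in HER2CA day 15. Of the pair that forms a particle with 5S ribosomal RNA and is known to bind the p53 regulator MDM2, Rpl5 had 306 and 317 CPM in libraries labelled 4OH-TAM, against 545 and 501 CPM in HER2CA day 15. Its partner Rpl11 had 176 and 171 CPM in libraries labelled 4OH-TAM, against 294 and 289 CPM in HER2CA day 15. Both fell, each by a log2 fold change of -0.75 (edgeR quasi-likelihood adjusted p = 3.37e-06 for Rpl5 and 3.26e-06 for Rpl11). Rpl10, added late in large-subunit maturation, and Rpl22 fell less, by log2 fold changes of -0.44 and -0.28.

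Among small-subunit genes, Rps25, known to be needed for initiation at viral internal ribosome entry sites, had 109 and 114 CPM in libraries labelled 4OH-TAM, against 265 and 232 CPM in HER2CA day 15. The log2 fold change was -1.16 ± 0.08 (edgeR quasi-likelihood adjusted p = 2.32e-09). Rps7 had 165 and 165 CPM in libraries labelled 4OH-TAM, against 387 and 356 CPM in HER2CA day 15. Both genes had all libraries of one group below all of the other. Rps3, at the mRNA entry channel, fell by a log2 fold change of -0.90, and Rps6, the substrate of S6 kinase, by -0.60.

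The P stalk, which recruits elongation factors, did not move as one. Rplp0, its base, had 470 and 517 CPM in libraries labelled 4OH-TAM, against 415 and 393 CPM in HER2CA day 15. It was the only 1 of the 74 called higher, with a log2 fold change of 0.29 ± 0.10 (edgeR quasi-likelihood adjusted p = 0.0164), and the call was lost when library B of either group was left out. Rplp1 and Rplp2, the acidic proteins bound to Rplp0, fell by log2 fold changes of -0.46 and -0.80. Besides Rplp0, the genes with the highest values were Rps12 at -0.11, Rpsa at -0.15, Rpl19 at -0.18 and Rps20 at -0.21. Of these, Rps12 was the only member whose libraries overlapped between the groups, with 153 and 177 CPM in libraries labelled 4OH-TAM, against 185 and 170 CPM in HER2CA day 15. Rps20 passed the threshold as lower, and Rps12, Rpsa and Rpl19 did not.

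Genes that fell were found among those with little and with much shared sequence. Of the 28 genes with under 50% shared 50-base stretches, 23 fell and 1 rose, with a median of -0.62. Of the 46 with 50% or more, 42 fell, with a median of -0.77. Of the 38 with no exon overlap with another annotated gene, 32 fell and 1 rose, with a median of -0.63. Other protein-coding genes with a transcript of up to 1000 bases had a median of -0.08 (912 genes), and those of them at a mean of 50 CPM or more had a median of -0.28 (229 genes). The 12 genes with CTCTTTC in their promoter window and the 43 without had the same median to 2 decimals here, -0.75. With and without it, medians were 0.60 and 0.61 in HER2CA day 15 over controls, and 0.09 and 0.25 in gliomaspheres over controls. They were -0.42 and -0.38 in gliomaspheres over HER2CA day 15, and -0.17 and -0.07 in libraries labelled 4OH-TAM over controls. These differences were not tested.

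**Figure D3:**
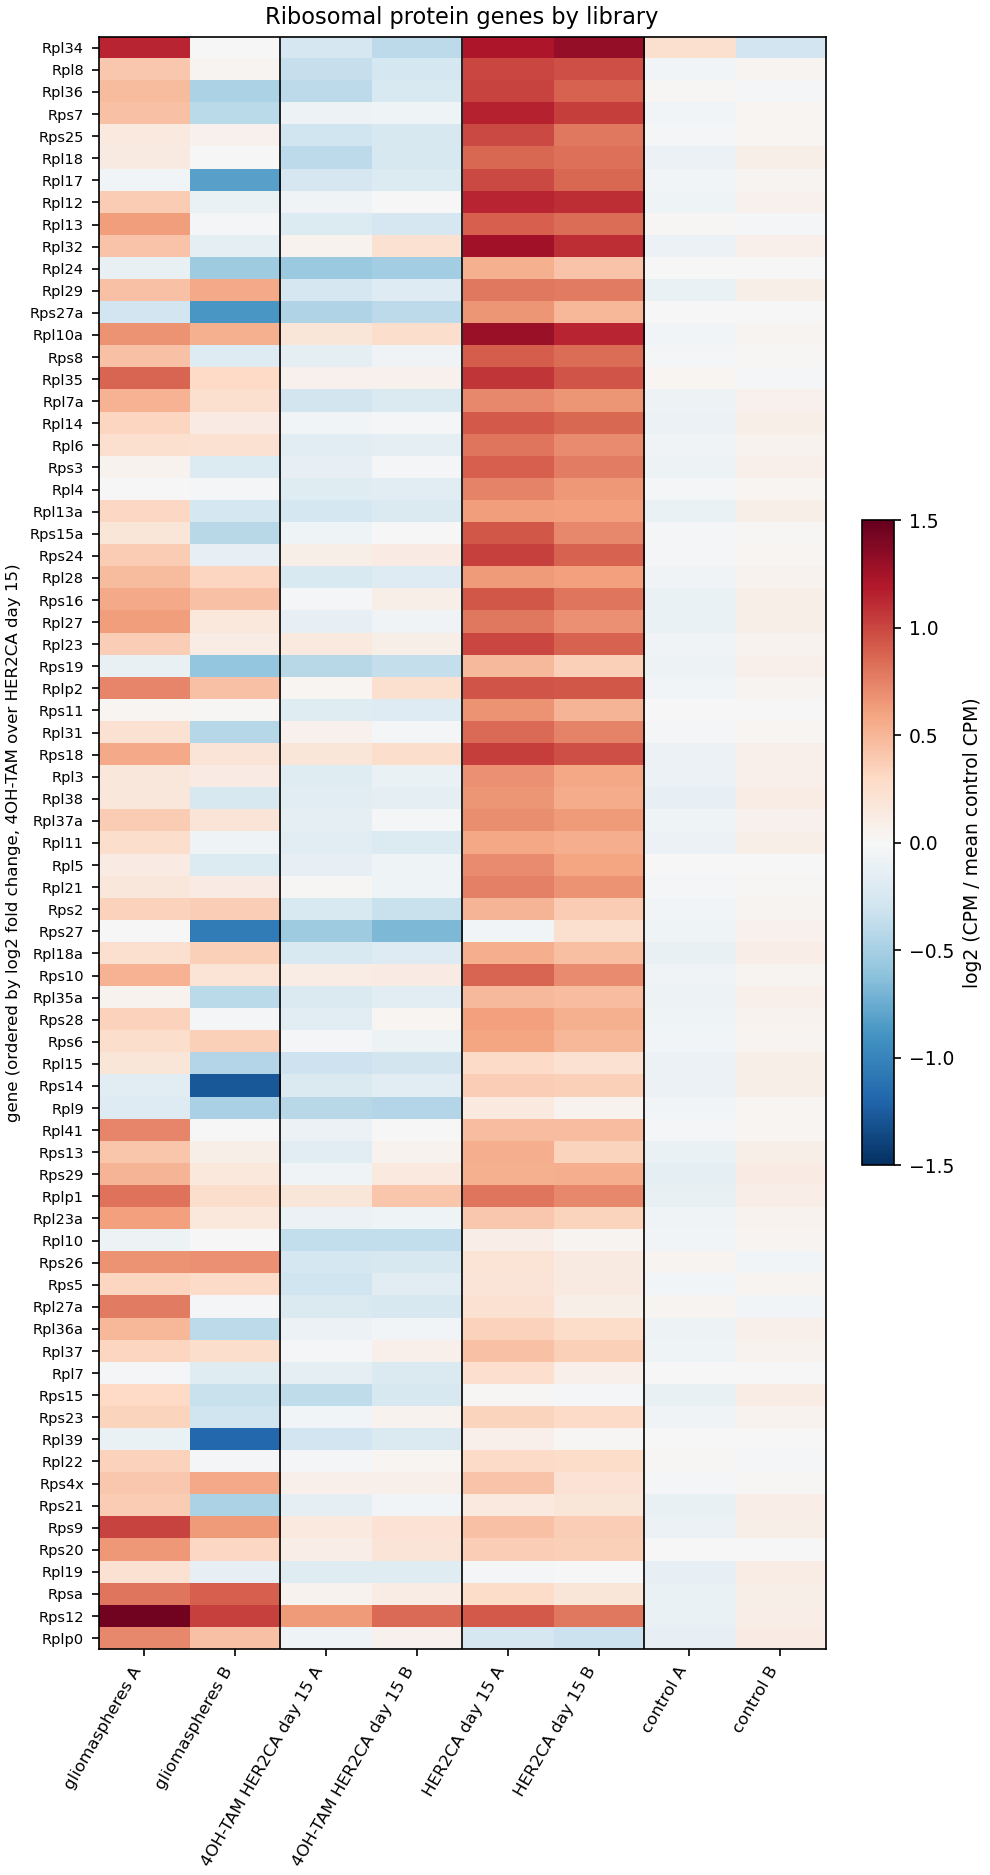
Log2 ratio of each library's CPM to the mean control CPM (colour, red higher and blue lower) for 73 of the 74 ribosomal protein genes (rows) in the 8 libraries (columns), with rows ordered by the log2 fold change of the libraries labelled 4OH-TAM over HER2CA day 15. The HER2CA day 15 columns are red in most rows except near the bottom, where Rplp0 is blue, and gliomaspheres B is paler or bluer than gliomaspheres A in most rows.

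HER2CA day 15 astrocytes had more ribosomal protein mRNA than controls, where the same HER2CA day 15 libraries are now the ones set against another group. By edgeR's quasi-likelihood test, 61 of the 74 genes rose and 1 fell, while 37.3% of all genes were called higher and 38.4% lower. The median log2 fold change of the 74 genes was 0.62, beside -0.02 over all genes. Increases of at least 1.5-fold were called for 40 of the 74, against 22.6% of all genes. In 70 of the 74 genes both HER2CA day 15 libraries lay above both controls, as they did in 43.7% of all genes. The small subunit had 26 of 30 genes higher, and the large subunit had 35 of 44 higher and 1 lower.

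Rpl10a, part of the stalk at the site where tRNA leaves the ribosome, had 178 and 161 CPM in HER2CA day 15, against 70.7 and 74.8 CPM in controls. The log2 fold change was 1.22 ± 0.08 (edgeR quasi-likelihood adjusted p = 1.82e-09). Rpl32 had 424 and 380 CPM in HER2CA day 15, against 167 and 187 CPM in controls, with a log2 fold change of 1.19 ± 0.13. These groups did not overlap. Rpl12, at the base of the P stalk, had 508 and 496 CPM in HER2CA day 15, against 220 and 239 CPM in controls. Rps7 had 387 and 356 CPM in HER2CA day 15, against 169 and 178 CPM in controls. Both rose, with log2 fold changes of 1.13 ± 0.11 for Rpl12 and 1.10 ± 0.17 for Rps7. Rpl34 had the highest log2 fold change, 1.26 ± 0.29, on 2.34 and 2.52 CPM in HER2CA day 15, against 1.19 and 0.824 CPM in controls.

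Rplp0 went the other way again, with 415 and 393 CPM in HER2CA day 15, against 451 and 535 CPM in controls. Its log2 fold change was -0.29 ± 0.10 (edgeR quasi-likelihood adjusted p = 0.0181), and the call was lost without HER2CA day 15 library B or without control library B. Its stalk partners Rplp1 and Rplp2 rose by log2 fold changes of 0.76 and 0.94. The next lowest values were 0.00 for Rpl19 and Rps15, 0.05 for Rpl39, which lines the peptide exit tunnel, and 0.07 for Rpl10, and none of these passed the threshold. Rpl19 had 376 and 382 CPM in HER2CA day 15, between the 349 and 411 CPM of the controls. Rpl5, Rpl11, Rps3, Rps6, Rpsa and Rpl22 all rose, with log2 fold changes of 0.66, 0.56, 0.83, 0.55, 0.23 and 0.28. The markers moved with this comparison as well: the 8 astrocyte markers summed to 2296 and 2397 CPM in HER2CA day 15, against 5306 and 6237 CPM in controls. The 7 oligodendrocyte lineage markers summed to 118 and 110 CPM in HER2CA day 15, against 466 and 503 CPM in controls. The 7 measured microglia markers summed to 26.8 and 28.4 CPM in HER2CA day 15, against 38.6 and 43.3 CPM in controls, and the 3 measured neuron markers to 34.1 and 36.8 CPM in HER2CA day 15, against 49.6 and 51.1 CPM in controls. None of these was at 0, and their part in the result was not tested.

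Libraries labelled 4OH-TAM and controls were compared directly after the values had been seen. In that comparison, 2 of the 74 genes were called higher and 17 lower, while 31% of all genes were called higher and 28.2% lower. The median log2 fold change was -0.09, beside 0.00 over all genes, and the SD over the 74 genes was 0.21. A change of at least 1.5-fold was called for 1 gene upwards, against 18.8% of all genes, and for 0 downwards, against 9.42%. Both libraries labelled 4OH-TAM lay below both controls in 38 genes, while 41.1% of all genes did so, and above both in 11 genes, as in 41.4% of all genes. Rps12 rose, with 153 and 177 CPM in libraries labelled 4OH-TAM, against 91.1 and 105 CPM in controls. Its log2 fold change was 0.75 ± 0.12 (edgeR quasi-likelihood adjusted p = 6.9e-05). Rpl10a was the other gene called higher, at 0.22. Rpl24, which forms a bridge to the small subunit, had 143 and 146 CPM in libraries labelled 4OH-TAM, against 211 and 208 CPM in controls, a log2 fold change of -0.54 ± 0.10. Rpl9, Rps27a, Rps19 and Rpl10 also fell, by log2 fold changes of -0.43, -0.42, -0.39 and -0.37. A gene that misses the threshold here is not shown to be equal in both groups, and the count of 17 was 32 when only these 4 libraries were fitted, 5 without library A labelled 4OH-TAM, 10 without library B labelled 4OH-TAM and 5 without control B. The count of genes called higher was 5 when only these 4 libraries were fitted and 1 without library B labelled 4OH-TAM or without control A. Markers differed here as well. The 8 astrocyte markers summed to 11119 and 11616 CPM in libraries labelled 4OH-TAM, against 5306 and 6237 CPM in controls, and the 7 measured microglia markers to 174 and 167 CPM in libraries labelled 4OH-TAM, against 38.6 and 43.3 CPM in controls. The 7 oligodendrocyte lineage markers summed to 833 and 872 CPM in libraries labelled 4OH-TAM, against 466 and 503 CPM in controls. None of these was at 0, and their part in the result was not tested.

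**Figure D4:**
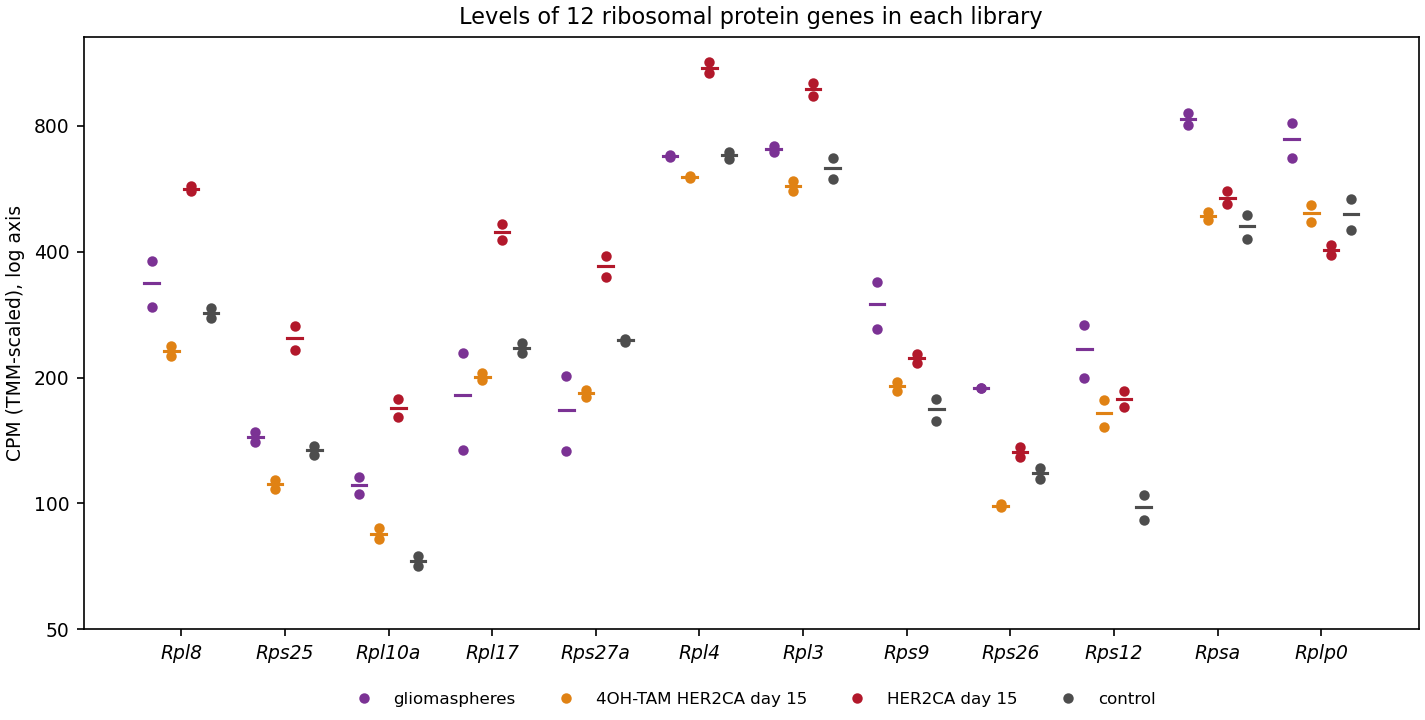
Level of 12 ribosomal protein genes in each library (y axis, TMM-scaled CPM on a log scale), with points for libraries A and B and a line at the group mean; Rpl3 and Rpl4 were added after their values were seen. For Rpl8, Rps25, Rpl10a, Rpl17, Rps27a, Rpl4 and Rpl3 the HER2CA day 15 points lie above the others, while for Rps9, Rps26, Rpsa and Rplp0 both gliomasphere points lie above all others.

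Gliomaspheres differed from controls in a mixed way. By edgeR's quasi-likelihood test, 35 of the 74 genes rose and 6 fell, while 32.5% of all genes were called higher and 32% lower. The median log2 fold change was 0.18, beside -0.01 over all genes. With no scaling factors it turned to -0.10, where that of all genes moved to -0.33. With the genes Rn45s and Lars2 removed, the median of the 74 genes was 0.16. Increases of at least 1.5-fold were called for 9 of the 74, against 19% of all genes. Both gliomasphere libraries lay above both controls in 34 genes (39.9% of all genes) and below both in 8 (40.4% of all genes). Leaving out a gliomasphere library moved the median of the 74 genes. Without library B it was 0.35, beside -0.01 over all genes. Library A alone lay above both controls in 60 genes and below both in 9, beside 6224 and 6289 of all 13607 genes. Without library A, the median of the 74 genes was -0.0047, beside -0.01 over all genes. It was 0.14 without control A and 0.25 without control B, beside -0.01 over all genes in each. These fits leave 1 library in a group, so the median is given for them. The 7 oligodendrocyte lineage markers summed to 3278 and 2966 CPM in gliomaspheres, against 466 and 503 CPM in controls, and the 6 measured fibroblast and mural markers to 62.7 and 68.9 CPM in gliomaspheres, against 380 and 339 CPM in controls. The 8 astrocyte markers summed to 10581 and 10966 CPM in gliomaspheres, against 5306 and 6237 CPM in controls. The 3 measured neuron markers summed to 15.9 and 17.8 CPM in gliomaspheres, against 49.6 and 51.1 CPM in controls. None of these was at 0 in these libraries, and their part in the result was not tested.

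Rps12 led this group, with 268 and 200 CPM in gliomaspheres, against 91.1 and 105 CPM in controls. Its log2 fold change was 1.26 ± 0.12 (edgeR quasi-likelihood adjusted p = 2.68e-07), 1.45 without gliomaspheres B. Rpsa, also known as a laminin receptor precursor, had 802 and 857 CPM in gliomaspheres, against 429 and 491 CPM in controls, and a log2 fold change of 0.85 ± 0.08, 0.80 without gliomaspheres B. Rps9, near the mRNA entry channel, had 338 and 261 CPM in gliomaspheres, against 158 and 178 CPM in controls, and a log2 fold change of 0.84 ± 0.10, 1.01 without gliomaspheres B. Rps26, which contacts mRNA next to the exit site and whose promoter window is printed above, had 189 CPM in both gliomasphere libraries, against 122 and 114 CPM in controls. Its log2 fold change was 0.68 ± 0.07 (edgeR quasi-likelihood adjusted p = 5.26e-07), 0.67 without gliomaspheres B. In each of these 4 genes both gliomasphere libraries lay above both controls, and with no scaling factors the log2 fold changes were 0.98 for Rps12, 0.51 for Rpsa, 0.55 for Rps9 and 0.35 for Rps26. Only that of Rps12 then passed the threshold. Rpl34, the other gene among the 5 highest, had 2.22 and 1.01 CPM in gliomaspheres, against 1.19 and 0.824 CPM in controls, and its libraries overlapped. Without gliomaspheres B its log2 fold change was 1.13.

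The whole P stalk rose in gliomaspheres over controls, with log2 fold changes of 0.59 for Rplp0, 0.58 for Rplp1 and 0.60 for Rplp2. Without gliomaspheres B these were 0.72, 0.82 and 0.73. Rplp0 had 814 and 671 CPM in gliomaspheres, against 451 and 535 CPM in controls. Rps6 rose by a log2 fold change of 0.31, which was -0.03 with no scaling factors and 0.26 without gliomaspheres B. Rpl5, Rpl11, Rps3, Rpl22 and Rpl10 did not pass the threshold, with log2 fold changes of -0.03, 0.12, -0.07, 0.17 and -0.04. Without gliomaspheres B, Rpl11 and Rpl22 passed it, at 0.27 and 0.34.

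The 6 genes called lower were Rps14, Rps27a, Rpl39, Rpl9, Rps19 and Rpl24. Rps14, part of the platform of the small subunit, had 192 and 88.5 CPM in gliomaspheres, against 201 and 227 CPM in controls, with a log2 fold change of -0.58 ± 0.21 (edgeR quasi-likelihood adjusted p = 0.0252). Rpl39 had 53.7 and 25.4 CPM in gliomaspheres, against 57.7 and 57.2 CPM in controls. In both genes library B was far below library A, and without library B the log2 fold changes were -0.15 for Rps14 and -0.10 for Rpl39, neither past the threshold. Rps27a, made as a fusion with ubiquitin, had 201 and 134 CPM in gliomaspheres, against 243 and 247 CPM in controls. Rpl9 had 196 and 160 CPM in gliomaspheres, against 219 and 230 CPM in controls. Rps27a and Rpl9 were the 2 genes also called lower without library B and without library A, with log2 fold changes of -0.29 and -0.20 without library B. Those of Rpl24 and Rps19 were both -0.11 without library B, and their calls were lost. Rpl17, with 229 and 134 CPM in gliomaspheres against 229 and 241 CPM in controls, had a log2 fold change of -0.36 and missed the threshold, and the value was -0.04 without library B.

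Gliomaspheres had lower levels of most of these mRNAs than HER2CA day 15. By edgeR's quasi-likelihood test, 49 of the 74 genes fell and 5 rose, while 40.4% of all genes were called lower and 38.4% higher. The median log2 fold change was -0.40, beside -0.03 over all genes, and falls of at least 1.5-fold were called for 26 genes, against 26.9% of all genes. Increases of that size were called for 2, against 29.7% of all genes. Both gliomasphere libraries lay below both HER2CA day 15 libraries in 54 genes, as they did in 45% of all genes. The large subunit had 33 of 44 genes lower and 1 higher, and the small subunit 16 of 30 lower and 4 higher. Without gliomaspheres B, the median log2 fold change of the 74 genes was -0.24, beside 0.01 over all genes. Library A alone lay below both HER2CA day 15 libraries in 51 genes, beside 6394 of all 13607 genes. Of the 49 genes called lower, 39 were also called lower without library A and without library B. The 7 oligodendrocyte lineage markers summed to 3278 and 2966 CPM in gliomaspheres, against 118 and 110 CPM in HER2CA day 15, and the 8 astrocyte markers to 10581 and 10966 CPM in gliomaspheres, against 2296 and 2397 CPM in HER2CA day 15. The 6 measured fibroblast and mural markers summed to 62.7 and 68.9 CPM in gliomaspheres, against 366 and 363 CPM in HER2CA day 15, where Rgs5 was at 0 in library B. The part of these markers in the result was not tested.

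Rpl17, near the end of the peptide exit tunnel, had 229 and 134 CPM in gliomaspheres, against 466 and 428 CPM in HER2CA day 15, and a log2 fold change of -1.28 ± 0.16 (edgeR quasi-likelihood adjusted p = 2.23e-06). It was -0.92 without gliomaspheres B, still past the threshold. Rps27a had 201 and 134 CPM in gliomaspheres, against 390 and 348 CPM in HER2CA day 15, with a log2 fold change of -1.13 ± 0.13, -0.83 without gliomaspheres B. Rps7 had 234 and 131 CPM in gliomaspheres, against 387 and 356 CPM in HER2CA day 15, and Rpl32 had 238 and 161 CPM in gliomaspheres, against 424 and 380 CPM in HER2CA day 15. Without gliomaspheres B the log2 fold changes were -0.62 for Rps7 and -0.71 for Rpl32, both past the threshold. In these 4 genes both gliomasphere libraries lay below both HER2CA day 15 libraries.

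The 5 genes called higher in gliomaspheres than in HER2CA day 15 were Rplp0, Rpsa, Rps26, Rps9 and Rps12. The first 4 were also called without library A and without library B. The call of Rps12 was lost without gliomaspheres A, at a log2 fold change of 0.17, and without HER2CA day 15 library B, at 0.34. Rplp0 had 814 and 671 CPM in gliomaspheres, against 415 and 393 CPM in HER2CA day 15, and a log2 fold change of 0.88 ± 0.10 (edgeR quasi-likelihood adjusted p = 1.19e-06). Rpsa had 802 and 857 CPM in gliomaspheres, against 557 and 520 CPM in HER2CA day 15, with a log2 fold change of 0.62 ± 0.08. Rps26 had 189 CPM in both gliomasphere libraries, against 136 and 129 CPM in HER2CA day 15, with a log2 fold change of 0.51 ± 0.07. These groups did not overlap. Without gliomaspheres B the log2 fold changes were 1.05 for Rplp0, 0.62 for Rpsa, 0.55 for Rps26, 0.65 for Rps9 and 0.63 for Rps12. With no scaling factors the log2 fold changes of Rplp0, Rpsa, Rps26, Rps9 and Rps12 were 0.64, 0.33, 0.23, 0.20 and 0.17, and none passed the threshold. Rps3, Rpl5, Rpl11, Rplp2 and Rps6 fell, by log2 fold changes of -0.90, -0.68, -0.45, -0.34 and -0.24, and Rplp1, Rpl10 and Rpl22 did not pass the threshold. Without gliomaspheres B the call of Rplp2 was lost, at -0.16.

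The 2 gliomasphere libraries differed from each other more than the libraries of any other group. The level in library B was below that in library A for 66 of the 74 genes, with a median log2 ratio of B over A of -0.37. Over the 11124 genes at a mean of 5 CPM or more it was 0.01. The median over the 74 genes was 0.05 in libraries labelled 4OH-TAM, -0.08 in HER2CA day 15 and 0.10 in controls. In gliomaspheres the 37 members with a transcript of up to 700 bases had a median of -0.45, and the 37 longer ones of -0.27. Across the 74 genes the log2 ratio rose with transcript length, at a Spearman rho of 0.45. Genes within a pair of libraries are not independent replicates, so this is a description. Other protein-coding genes with short transcripts also had less in library B, with a median of -0.24 for the 262 genes of up to 700 bases and -0.16 for the 728 of up to 1000 bases, against 0.02 for the 9840 longer ones. Library B also carried 36.1% Rn45s, and the part of these differences in the gliomasphere comparisons was not tested beyond leaving out each library.

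**Figure D5:**
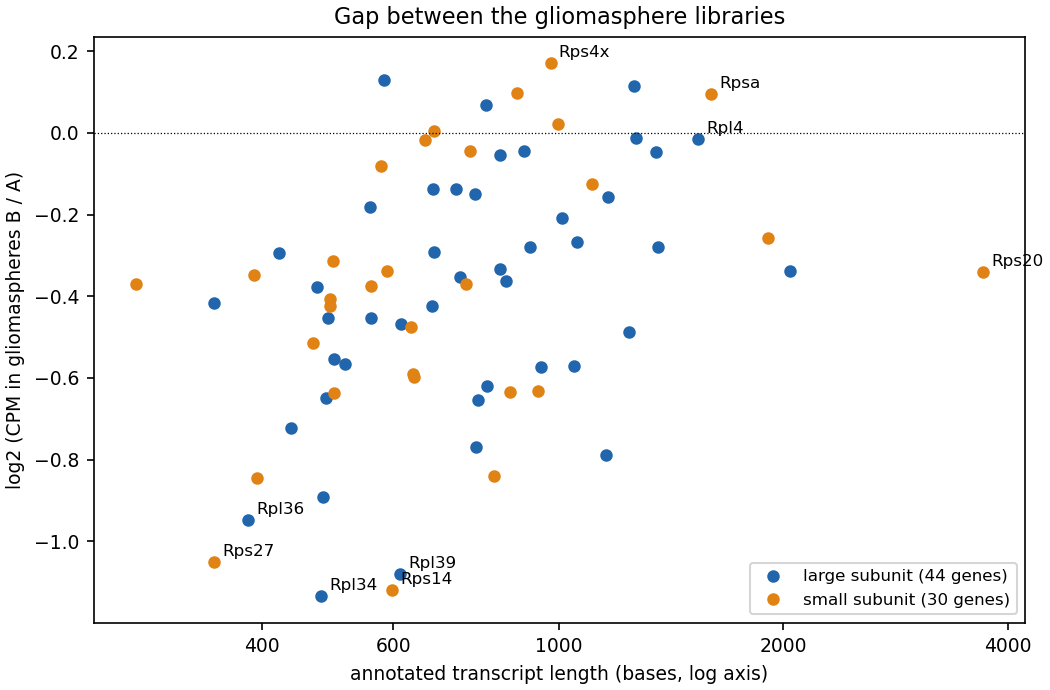
Log2 ratio of the CPM in gliomaspheres B to that in gliomaspheres A (y axis) against annotated transcript length in bases (x axis, log scale) for the 44 large-subunit genes in blue and the 30 small-subunit genes in orange. Most points lie below 0 (66 of 74 genes), and the lowest, among them Rpl34, Rps14, Rpl39 and Rps27, have short transcripts.

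Of 16 listed genes that the name rule leaves out, which are ribosomal protein genes or their paralogs, 9 were in the table. In libraries labelled 4OH-TAM over HER2CA day 15, 7 of the 9 fell, against 39.7% of all genes. The 6 with the lowest p were Rpl7l1, Rps27l, Fau, Rps3a1, Rpl36al and Gnb2l1. Rpl7l1, a paralog of Rpl7, had 69.4 and 73.2 CPM in libraries labelled 4OH-TAM, against 168 and 190 CPM in HER2CA day 15, a log2 fold change of -1.33. Rpl7 itself had 384 and 366 CPM in libraries labelled 4OH-TAM, against 507 and 447 CPM in HER2CA day 15, a log2 fold change of -0.35. In HER2CA day 15 over controls, Rpl7l1 rose by a log2 fold change of 1.68, while the value of Rpl7 was 0.17 and missed the threshold. Rpl22l1, the paralog of Rpl22, did not pass the threshold in these comparisons, with log2 fold changes of 0.09 in libraries labelled 4OH-TAM over HER2CA day 15 and -0.30 in HER2CA day 15 over controls. Rps27l, a paralog of Rps27 known as a p53 target, had 63.9 and 41.0 CPM in gliomaspheres, 56.9 and 51.5 CPM in libraries labelled 4OH-TAM, 98.0 and 93.3 CPM in HER2CA day 15, and 89.7 and 86.6 CPM in control astrocytes. Rps27l fell in gliomaspheres and in libraries labelled 4OH-TAM, each against controls, with log2 fold changes of -0.71 and -0.70, and -0.47 in gliomaspheres without library B. Paralogs can share reads, so levels within a pair are uncertain.

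The translation factors and the lists that follow are set beside the shares of all genes called. In libraries labelled 4OH-TAM over HER2CA day 15 these were 39.7% lower and 40.8% higher, in HER2CA day 15 over controls 37.3% higher and 38.4% lower, and in gliomaspheres over controls 32.5% higher and 32% lower. Of 37 initiation factor genes measured, 32 (86.5%) fell and 3 rose in libraries labelled 4OH-TAM over HER2CA day 15 (median -0.83), and 27 (73%) rose and 2 fell in HER2CA day 15 over controls (median 0.70). Eif4a1, the helicase of the cap-binding complex, had 474 and 465 CPM in libraries labelled 4OH-TAM, against 1441 and 1550 CPM in HER2CA day 15, a log2 fold change of -1.67 ± 0.07 (edgeR quasi-likelihood adjusted p = 3.32e-11). Eif3a and Eif3d, subunits of the scaffold that binds the small subunit, fell by -1.48 and -1.63. In gliomaspheres over controls, 9 of the 37 rose and 11 fell (median -0.05), shares of 24.3% and 29.7% that lie below those of all genes. Without gliomaspheres B, 7 rose and 12 fell. Of 13 elongation and release factor genes, 10 (76.9%) fell and 1 rose in libraries labelled 4OH-TAM over HER2CA day 15. In HER2CA day 15 over controls, 8 of the 13 (61.5%) rose and 1 fell, and Etf1, which recognises stop codons, rose by a log2 fold change of 1.36.

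Of 20 further mRNAs with a known TOP tract, 15 (75%) fell and 2 rose in libraries labelled 4OH-TAM over HER2CA day 15 (median -0.45), against 39.7% and 40.8% of all genes. Over controls, 12 (60%) rose and 2 fell in HER2CA day 15 (median 0.39), against 37.3% and 38.4%. Eif4b, a helicase cofactor, ran against the rest. It had 303 and 304 CPM in libraries labelled 4OH-TAM, against 216 and 195 CPM in HER2CA day 15, and 354 and 373 CPM in control astrocytes. Eif4b rose by a log2 fold change of 0.56 in libraries labelled 4OH-TAM over HER2CA day 15, and fell by 0.82 on the log2 scale in HER2CA day 15 against controls. In gliomaspheres over controls, 9 of the 20 (45%) rose and 2 fell, against 32.5% and 32% of all genes, led by Nap1l1 at a log2 fold change of 1.05. Without gliomaspheres B, 12 rose and 2 fell, and Nap1l1 was at 1.08.

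Regulators of TOP mRNAs and of mTORC1 moved in both directions. Of 24 genes, 13 (54.2%) fell and 6 (25%) rose in libraries labelled 4OH-TAM over HER2CA day 15, nearer to the 39.7% and 40.8% of all genes than the lists above. In HER2CA day 15 over controls, 14 (58.3%) rose and 6 (25%) fell, against 37.3% and 38.4% of all genes. Larp1, which binds TOP mRNAs, had 179 and 196 CPM in libraries labelled 4OH-TAM, against 387 and 411 CPM in HER2CA day 15, and a log2 fold change of -1.09. Ddit4, an inhibitor of mTORC1, had 85.3 and 75.1 CPM in libraries labelled 4OH-TAM, against 37.2 and 29.8 CPM in HER2CA day 15, and 185 and 179 CPM in control astrocytes. The values of Ddit4 did not overlap between any of these groups. Eif4ebp1, a repressor of cap-dependent initiation, had 15.8 and 15.1 CPM in gliomaspheres, against 104 and 111 CPM in HER2CA day 15 and 37.4 and 36.4 CPM in control astrocytes.

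The MYC family and other factors known at these promoters were measured for all 16 listed genes. In libraries labelled 4OH-TAM over HER2CA day 15, 10 (62.5%) fell and 4 (25%) rose. In HER2CA day 15 over controls, 8 (50%) rose and 6 (37.5%) fell, the second share close to the 38.4% of all genes. Myc had 99.1 and 116 CPM in gliomaspheres, 59.8 and 68.9 CPM in libraries labelled 4OH-TAM, 102 and 108 CPM in HER2CA day 15, and 20.3 and 21.1 CPM in control astrocytes. Both libraries of each of the 3 HER2CA groups lay above both controls. Its log2 fold change over controls was 2.37 in gliomaspheres (2.26 without library B), 1.64 in libraries labelled 4OH-TAM and 2.34 in HER2CA day 15, comparisons that share the control libraries. Mxd4, a MYC antagonist, had 66.6 and 50.7 CPM in gliomaspheres, 32.6 and 35.2 CPM in libraries labelled 4OH-TAM, 10.04 and 9.56 CPM in HER2CA day 15, and 31.7 CPM in both controls.

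Dedicated chaperones and quality control factors of ribosomal proteins were the last list. Of 20 genes, 18 (90%) fell and 0 rose in libraries labelled 4OH-TAM over HER2CA day 15 (median -0.85), against 39.7% and 40.8% of all genes. Over controls, 18 (90%) rose and 0 fell in HER2CA day 15 (median 0.82), against 37.3% and 38.4%. In gliomaspheres over HER2CA day 15, 18 fell and 1 rose (median -0.84), against 40.4% and 38.4% of all genes, and 17 fell and 1 rose without gliomaspheres B. In gliomaspheres over controls 5 (25%) rose and 6 (30%) fell, below the 32.5% and 32% of all genes, and without gliomaspheres B 6 rose and 6 fell. Tsr2, the chaperone of Rps26, had 36.1 and 41.2 CPM in libraries labelled 4OH-TAM, against 77.4 and 83.2 CPM in HER2CA day 15. Pdcd2, a chaperone of Rps2, had 13.9 and 16.4 CPM in libraries labelled 4OH-TAM, against 44.2 and 42.9 CPM in HER2CA day 15. Heatr3, the importer of Rpl5, had 44.6 and 49.8 CPM in gliomaspheres, 38.8 and 43.2 CPM in libraries labelled 4OH-TAM, 102 CPM in both HER2CA day 15 libraries, and 18.4 and 15.0 CPM in controls. All 3 HER2CA groups lay above the controls for Heatr3, with HER2CA day 15 highest.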

How the data were processed

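Stranded polyA RNA libraries from 8 samples in 4 groups of 2 were analysed. The authors deposited whole-number read counts per gene symbol, not normalised. The submitters' processing notes name STAR 2.5.3a, featureCounts and FastQC, and list mm10 and GRCm38 as builds. Annotation, strand setting and handling of multi-mapped reads: not given in the sources used here. Reads of pseudogenes and of overlapping genes may therefore not be separable. In each gene of the table the second-highest library was at 1.01 CPM or more, and lower genes were not analysed here. The table holds 0 columns of other samples.

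Tests used edgeR 4.0.16 (R 4.3.3) with TMM factors. All 13607 genes passed filterByExpr, and the quasi-likelihood fit took all 8 libraries, with a mean for each group and 4 residual degrees of freedom. Each of 5 comparisons was tested by glmQLFTest, with p-values adjusted by Benjamini-Hochberg over the whole table and a threshold of 0.05, the fifth (libraries labelled 4OH-TAM over controls) having been added after values were seen. A standard error is the size of the log2 fold change over the root of its F statistic. Between the libraries of a group, chi-square per degree of freedom was 733 in gliomaspheres, 4.05 in libraries labelled 4OH-TAM, 5.61 in HER2CA day 15 and 12.6 in controls, so each library was counted as 1 replicate. On simulated counts for libraries labelled 4OH-TAM over HER2CA day 15 (13607 genes), the fit recovered 28% of changes of 1.25-fold and 60% of those of 1.5-fold. It recovered 92% of 2-fold changes, 96% of 4-fold changes, and 6.12% of its calls were false. Only 50 genes were changed at each fold, while 40.8% of all genes were called higher and 39.7% lower in the data. The adjusted threshold is stricter with so few changes, so these rates do not give the sensitivity of the real test.

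Gene positions, exon overlaps and transcript lengths (the shortest basic coding transcript with an APPRIS tag) came from GENCODE M21 on GRCm38, in which all 74 symbols were found, and promoter windows from RefSeq GRCm38.p6. The members and the 7 companion lists were chosen with earlier results of these data known, so counts over them are descriptions. Named in each comparison were the 5 highest and 5 lowest members, those called against most others, Rplp0, Rplp1, Rplp2, Rpl5, Rpl11, Rps6, Rpsa, Rps3, Rpl22 and Rpl10, and up to 6 genes per companion list by lowest p. A gene that this rule names is not reported here. Rps24, Rpl3, Rpl4, Rpl7 and Rpl22l1, and the levels per kilobase, were chosen after values were seen. Alternatives were other scaling factors, filters and a fold threshold, DESeq2 1.42.0, a fit of only the groups compared, the removal of Rn45s and Lars2, the replicate letter as a block, and each library left out in turn.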

Additional observations from a re-analysis of the deposited data

How the results depend on the processing

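The median log2 fold change of the 74 genes kept its sign in every alternative run, except in gliomaspheres over controls, where it was -0.10 with no scaling factors and -0.0047 without gliomaspheres A (0.35 without gliomaspheres B). Scaling moved all genes together: upper-quartile factors moved the all-gene median to 0.22 in libraries labelled 4OH-TAM over HER2CA day 15 and -0.17 in HER2CA day 15 over controls, and no scaling factors to 0.13 in the first of these, -0.33 in gliomaspheres over controls and -0.30 in gliomaspheres over HER2CA day 15. A scaling factor shifts every gene nearly alike, so the median of the 74 genes minus that of all genes can hardly change with it. It was -0.76 in libraries labelled 4OH-TAM over HER2CA day 15 under all scalings, which is no separate check of the result. Of 150 recomputed counts of calls, 111 stayed within 1.5 times.

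In libraries labelled 4OH-TAM over HER2CA day 15, no scaling factors gave 0 higher and 32 lower (4338 and 2037 of all 13607 genes). The 1.5-fold threshold gave 0 higher there (31.9% of all genes). In HER2CA day 15 over controls, no scaling factors gave 29 higher and 0 lower (2304 and 3586 of all genes). The 1.5-fold threshold gave 40 higher and 0 lower (22.6% and 28.4% of all genes). In gliomaspheres over controls, no scaling factors gave 1 higher and 3 lower (1386 and 3260 of all genes). The 1.5-fold threshold gave 9 higher and 0 lower (19% and 17.1% of all genes). In gliomaspheres over HER2CA day 15, upper-quartile factors gave 9 higher and no scaling factors 0 higher (5730 and 3030 of all genes). The 1.5-fold threshold gave 2 higher and 26 lower (29.7% and 26.9% of all genes). In libraries labelled 4OH-TAM over controls, upper-quartile factors gave 4 higher and 11 lower (4667 and 3284 of all genes). No scaling factors gave 1 higher and 0 lower (2115 and 539), and the 5 CPM filter 4 higher (3591). The fit of only these groups gave 5 higher and 32 lower (4422 and 4275). The 1.5-fold threshold gave 1 higher and 0 lower (18.8% and 9.42% of all genes). With Rn45s and Lars2 removed, gliomaspheres over controls had 33 higher and 7 lower (4283 and 4528 of all genes). Gliomaspheres over HER2CA day 15 then had 5 higher and 49 lower (5196 and 5541). The cause of the differences between settings was not tested.

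Leaving out each library in turn gave 0 to 1 higher and 57 to 59 lower in libraries labelled 4OH-TAM over HER2CA day 15, and 54 to 59 higher and 0 to 1 lower in HER2CA day 15 over controls. It gave 21 to 51 higher and 2 to 20 lower in gliomaspheres over controls, and 4 to 14 higher and 40 to 60 lower in gliomaspheres over HER2CA day 15. In libraries labelled 4OH-TAM over controls it gave 1 to 3 higher and 5 to 15 lower.

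The fits of the previous paragraph leave 1 library in a group, so their counts are not compared with those of all genes. In libraries labelled 4OH-TAM over controls, they gave member medians of -0.15 to -0.03, beside -0.0036 to -0.0009 over all genes. With the replicate letter as a block, 1 was higher and 64 lower (5541 and 5407 of all 13607 genes). The next counts were 59 and 1 (5083 and 5217), 33 and 7 (4421 and 4340), and 5 and 49 (5219 and 5485). The last were 2 and 16 (4218 and 3854), in the order of the comparisons in the previous paragraph. The labels do not say whether the letters pair the samples. Deviations of same-lettered libraries correlated between -0.03 and 0.10, which does not decide it, as a weak pairing could be hidden by noise. With 2 libraries per group, changes under 1.5-fold may be missed at this depth.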
